A study of Pseudozyma hubeiensis with 12 samples.

Results

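The transcript of the alternative oxidase was followed by RNA sequencing in Pseudozyma hubeiensis BOT-O, a yeast of the basidiomycetes, grown on xylose or glucose. The gene is locus PHBOTO_002482, 1 of 6689 loci in the deposited table and the only 1 annotated as an alternative oxidase. It was chosen by its product name and selected on its levels in these same libraries, so its levels, ranks and fold changes are given as a description, with no test. The 4 groups were nitrogen-starved cultures on xylose, nitrogen-starved cultures on glucose, exponentially growing cultures on xylose and exponentially growing cultures on glucose, with 3 biological replicates (A, B and C) each. Both starved groups were sampled at time point 2 and both exponential groups at time point 1, so starvation and the later time point cannot be told apart. All cultures were the same strain in nitrogen-limited YNB medium that started at 80 g carbon per g nitrogen, and no group carried a mutation or an added agent per the labels. Total counts per library ranged from 15130232 (starved glucose replicate A) to 32374467 (exponential glucose replicate B).

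Alternative oxidase is an enzyme of the inner mitochondrial membrane that many fungi and plants have and that Saccharomyces cerevisiae lacks. It takes electrons from ubiquinol and passes them straight to oxygen, which bypasses complex III, cytochrome c and complex IV. Because the enzyme pumps no protons, electrons that leave by this branch yield less ATP, and the branch is known to keep the ubiquinone pool oxidised when the cytochrome pathway is slow or ATP demand is low.

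The alternative oxidase transcript was most abundant in starved xylose cultures and least abundant in exponential xylose cultures, with both glucose groups in between. Levels are given in CPM, the locus's counts per 1000000 reads of a library after scaling for composition. In starved xylose cultures it stood at 4793, 4347 and 5155 CPM in replicates A, B and C. Starved glucose cultures had 1681, 2496 and 3243 CPM. In exponential cultures it stood at 98.3, 99.5 and 115.6 CPM on xylose. On glucose the exponential cultures had 855, 1047 and 804 CPM. All 3 libraries of a group lay on the same side of all 3 libraries of each neighbouring group in this order, so no neighbouring groups overlapped. The narrowest gap was between starved xylose and starved glucose, where the lowest xylose library was 1.34 times the highest glucose library. Between starved glucose and exponential glucose the same ratio of the nearest libraries was 1.61. The lowest exponential glucose library was 6.96 times the highest exponential xylose library.

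**Figure D1:**
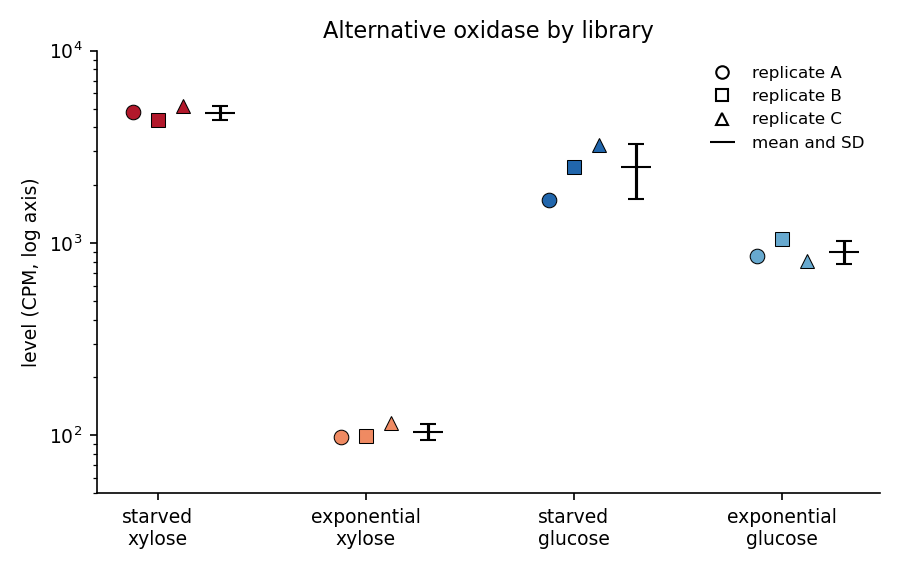
Level of the alternative oxidase transcript in CPM (log axis) in each of the 12 libraries, by group, with markers for replicates A, B and C and a bar for the group mean and SD (n = 3). Starved xylose libraries sit between 4347 and 5155 CPM and exponential xylose libraries between 98.3 and 115.6 CPM, while both glucose groups lie in between and the starved glucose libraries are the most spread.

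The counts behind these levels were large in every library. The locus had 78728, 95519 and 127125 reads in the starved xylose libraries and 26302, 41307 and 51507 reads in the starved glucose libraries. It had 3154, 3097 and 3525 reads in the exponential xylose libraries and 25712, 35621 and 16510 reads in the exponential glucose libraries. The level in exponential xylose cultures was thus the lowest of the 4 groups but far from the limit of detection. CPM is a share of the RNA in a library, so more transcript per cell and less other RNA per cell cannot be told apart.

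Among all loci, the alternative oxidase moved through most of the upper range of read counts. By mean CPM it ranked 29 of 6689 in starved xylose cultures and 47 in starved glucose cultures. It ranked 1885 in exponential xylose cultures, above 71.8% of loci, and 162 in exponential glucose cultures. These ranks are of reads per locus, not corrected for transcript length, since no length was given in the files used here. A single gene took 0.424, 0.409 and 0.465% of all counts in the starved xylose libraries, against 0.0103 to 0.0123% in the exponential xylose libraries.

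Replicates did not vary equally. The mean was 4765 ± 405 CPM in starved xylose cultures, 2473 ± 781 CPM in starved glucose cultures, 104 ± 9.65 CPM in exponential xylose cultures and 902 ± 128 CPM in exponential glucose cultures (SD, n = 3 each). The coefficient of variation (SD over mean) was 8.50% in starved xylose cultures, close to the median of 7.83% over the 1413 loci with a mean of at least 3000 reads there. Starved glucose cultures had 31.6%, where the median of 984 such loci was 8.46% and 35 of them (3.56%) varied more. In exponential glucose cultures it was 14.2%, with 12 of 1874 such loci (0.640%) varying more, and in exponential xylose cultures 9.24%, with 241 of 2063 varying more. Within starved glucose, replicates A and C differed 1.93-fold in the alternative oxidase. The starved glucose libraries also agreed least with each other over all tested loci, with Pearson's r of log2 CPM between 0.982 and 0.987, against 0.992 to 0.998 among the replicates of the other groups. The part of this looser agreement in the spread of the alternative oxidase was not tested.

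Starvation was accompanied by a far larger difference in alternative oxidase on xylose than on glucose. Its log2 fold change was 5.51 ± 0.21 (SE) for starved over exponential cultures on xylose, which is 45.6-fold. Only 74 of the 5805 tested loci (1.27%) had a larger value, and the lowest starved xylose library was 37.6 times the highest exponential xylose library. On glucose the log2 fold change of starved over exponential cultures was 1.45 ± 0.18 (SE), which is 2.74-fold, and 931 loci had a larger value. The difference between the 2 changes, xylose minus glucose, was 4.06 ± 0.26 (SE) on the log2 scale, or 16.6-fold, and 26 tested loci had a larger difference.

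The sugar difference had opposite directions in the 2 phases. Exponential xylose cultures had less alternative oxidase than exponential glucose cultures, with a log2 fold change of -3.11 ± 0.19 (SE), which is 8.64-fold lower. Only 6 of the 5805 tested loci had a smaller value in that comparison. Starved xylose cultures had more than starved glucose cultures, with a log2 fold change of 0.95 ± 0.18 (SE), or 1.93-fold, and 327 loci had a larger value. The authors' deposited table gives log2 fold changes of 5.51 for starvation on xylose, 1.48 for starvation on glucose, -3.12 for xylose against glucose in exponential growth and 0.91 for xylose against glucose in starvation. The same order of the 4 group means was found at 642 tested loci (11.1%), and 160 of all tested loci (2.76%) had it with no overlap between neighbouring groups.

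The other genes of mitochondrial respiration were described in 12 lists built from product names, with 147 loci in all, 141 of them tested. Lists of the respiratory complexes and of ATP synthase hold assembly factors as well as subunits. A locus was called higher or lower at an edgeR adjusted p under 0.05 over all 5805 loci. Starvation changed most of the transcriptome, so a count of calls in a list has to be read against a high background. For starved over exponential xylose cultures, 40.6% of tested loci were called higher and 40.6% lower. For starved over exponential glucose cultures these shares were 40.1% higher and 41.1% lower. Exponential xylose over exponential glucose cultures gave 9.94% higher and 10.8% lower, and starved xylose over starved glucose cultures gave 23.0% higher and 19.2% lower. The log2 change with starvation was called larger on xylose than on glucose at 21.7% of loci and smaller at 16.5%. Scaled by library totals alone, 958 loci were higher and 1706 lower in starved xylose than starved glucose cultures, where the main scaling gave 1333 and 1113, and the starvation change was larger on xylose at 937 and smaller at 1260, where it gave 1262 and 956. Comparisons with the same starved or exponential group share those libraries.

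In 3 of these 4 comparisons at most 2 of the listed loci differed more than the alternative oxidase. For starvation on xylose, 2 of the 141 tested loci had a larger log2 fold change, dic1_2 and pet9_2, and for starvation on glucose 17 did. None of the 141 was lower on exponential xylose by as much: the lowest value was that of cyc3, at -1.18 on the log2 scale, against -3.11 for the alternative oxidase. For xylose over glucose in starvation, only lat1_2 had a larger value, at 1.69.

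**Figure D2:**
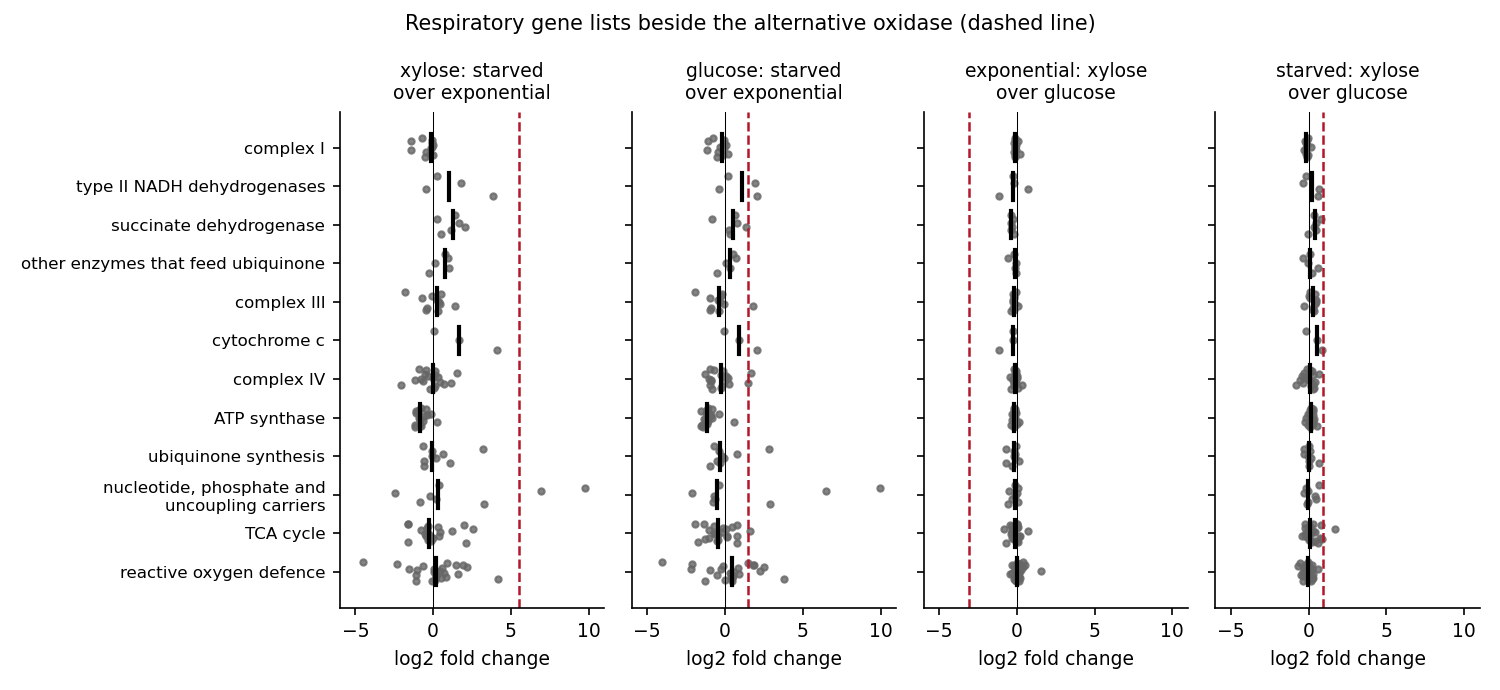
Log2 fold change of each tested locus (grey points) in 12 lists of respiratory genes for 4 comparisons, with the list median as a black bar and the alternative oxidase as a red dashed line. The oxidase line at 5.51 for starvation on xylose lies beyond all list loci but 2 carriers, and the line at -3.11 for exponential xylose over glucose lies beyond every list locus.

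Ubiquinol, the reduced form of ubiquinone, is the electron donor of the alternative oxidase, and complex I is a proton-pumping enzyme that reduces ubiquinone with electrons from NADH. The 12 tested loci annotated to complex I include PHBOTO_001680, related to an intermediate-associated protein of the complex. Of the 12, 5 were lower in starved than exponential xylose cultures and the other 7 were not called. The median log2 fold change of the 12 was -0.15, against 0.00 over all tested loci. On glucose 6 were lower and the other 6 were not called, with a median of -0.21, against -0.02 over all tested loci. Scaled by library totals alone, all 12 were lower on xylose and 7 were lower on glucose, with medians of -0.36 and -0.31. The medians over all tested loci were then -0.21 and -0.12. PHBOTO_000111, the flavoprotein that takes electrons from NADH, fell by 0.50 on the log2 scale on xylose and by 0.51 on glucose with starvation. Between the sugars in exponential growth, 0 of 12 were called by edgeR, 1 had an unadjusted p under 0.05, and DESeq2 called 1. In starvation 2 were lower on xylose than on glucose by edgeR, 4 by DESeq2 and 8 by edgeR scaled by library totals alone.

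Type II NADH dehydrogenases also reduce ubiquinone but pump no protons, and together with the alternative oxidase they can carry electrons from NADH to oxygen without any proton pumping. Of 4 loci, 3 were higher and 1 lower with starvation on each sugar (2 and 1 scaled by library totals alone). The rise of PHBOTO_003931, annotated as a non-electrogenic enzyme, lost its call in 7 other alternative fits on glucose and 2 on xylose. The external enzyme nde2, which oxidises cytosolic NADH, had 153.7, 155.3 and 155.6 CPM in starved xylose cultures and 43.5, 46.9 and 45.7 CPM in exponential xylose cultures. It had 184.8, 233.1 and 195.4 CPM in starved glucose cultures and 53.2, 53.7 and 50.9 CPM in exponential glucose cultures. The log2 fold change of nde2 with starvation was 1.77 ± 0.09 (SE) on xylose and 1.96 ± 0.09 (SE) on glucose, and the difference of the 2 changes was not called. Unlike the alternative oxidase, nde2 was lower in starved xylose than starved glucose cultures, by -0.40 on the log2 scale. A second copy, nde1_2, changed in the direction of the alternative oxidase in each comparison, by 3.85 ± 0.20 (SE) for starvation on xylose, 2.09 ± 0.18 (SE) for starvation on glucose and -1.17 ± 0.20 (SE) for xylose over glucose in exponential growth, all on the log2 scale. Its excess of 0.60 ± 0.17 (SE) in starved xylose over starved glucose cultures lost its call without starved xylose replicate C. The level of nde1_2 was low, at 21.1, 24.1 and 28.4 CPM in starved xylose cultures and 2.12, 1.61 and 1.34 CPM in exponential xylose cultures. The first copy, nde1, went the other way in 3 of the comparisons. It was lower with starvation on xylose, by -0.47 ± 0.15 (SE), and on glucose, by -0.41 ± 0.16 (SE). In exponential growth it was higher on xylose than on glucose, by 0.70 ± 0.15 (SE). Between the starved groups nde1 went in the direction of the alternative oxidase. It had 125.7, 104.4 and 80.3 CPM in starved xylose and 59.8, 83.3 and 56.0 CPM in starved glucose cultures, which overlapped. The fall of nde1 lost its call on xylose without starved xylose replicate C and on glucose in 3 of the fits that left out a library. How reads that match several loci were counted is not given in the sources used here, so the levels of copies named with a suffix, such as nde1 and nde1_2, are uncertain.

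Succinate dehydrogenase, the complex II that links the TCA cycle to ubiquinone, moved in the directions of the alternative oxidase but by less. Of 6 loci, subunits and assembly factors, 5 were higher with starvation on xylose and 1 was not called, with a median log2 fold change of 1.26. On glucose 5 were higher and 1 lower, with a median of 0.50. In exponential growth 4 were lower on xylose than on glucose, and in starvation 5 were higher on xylose. Each of the 4 calls in exponential growth was lost in some fits that left out a library: in 4 for sdh1, 3 for sdh8, 2 for sdh3 and 1 for sdh2. The starved-culture call of sdh3 was lost in 5 of the alternative fits. The iron-sulfur subunit sdh2 had 1090, 1041 and 1075 CPM in starved xylose cultures, 644, 774 and 916 CPM in starved glucose cultures, 331, 344 and 358 CPM in exponential xylose cultures and 454, 463 and 451 CPM in exponential glucose cultures. These groups did not overlap and stood in the order of the alternative oxidase. The log2 fold change of sdh2 with starvation was 1.63 ± 0.11 (SE) on xylose and 0.77 ± 0.10 (SE) on glucose, with edgeR adjusted p values of 5.1e-10 and 4e-06. The difference of the 2 changes of sdh2 was 0.86 ± 0.15 (SE), with an edgeR adjusted p of 0.00033. The catalytic flavoprotein sdh1 had log2 fold changes with starvation of 1.14 ± 0.11 (SE) on xylose and 0.28 ± 0.11 (SE) on glucose, and the glucose call was lost in 5 of the alternative fits.

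Other enzymes that deliver electrons to ubiquinone changed modestly. Of 5 loci, 3 were higher and 1 lower with starvation on xylose, and 2 were higher and 1 lower on glucose. The mitochondrial glycerol-3-phosphate dehydrogenase gut2, which passes electrons from cytosolic glycerol 3-phosphate to ubiquinone, rose by 0.93 ± 0.08 (SE) on the log2 scale on xylose and by 0.71 ± 0.08 (SE) on glucose. Unlike the alternative oxidase, gut2 was lower in starved xylose than starved glucose cultures, by -0.35 ± 0.08 (SE). The proline dehydrogenase put1 rose by 0.99 ± 0.18 (SE) with starvation on xylose and had a value of 0.30 ± 0.18 (SE) on glucose, which was not called.

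The cytochrome pathway competes with the alternative oxidase for ubiquinol. Its 3 lists include assembly factors and 2 heme synthases, so their counts and sums are not those of the subunits alone. Together they hold 35 loci, 33 of them tested. For starvation on xylose 13 were higher and 11 lower (8 and 14 scaled by library totals alone), with a median log2 fold change of 0.04. For starvation on glucose 5 were higher and 19 lower, with a median of -0.26. Summed over the 35 loci, the pathway stood at 13307 ± 458 CPM in starved xylose cultures, 10338 ± 1514 CPM in starved glucose cultures, 9117 ± 238 CPM in exponential xylose cultures and 10402 ± 323 CPM in exponential glucose cultures (SD, n = 3 each). Between starved and exponential xylose cultures, much of the difference in this sum came from the 3 loci of the cytochrome c list. They are the cytochrome c gene cyc7 and the genes of 2 synthases that attach heme, cyc3 and cyt2. They summed to 5639 ± 504 CPM in starved xylose, 3825 ± 894 CPM in starved glucose, 1607 ± 102 CPM in exponential xylose and 1981 ± 125 CPM in exponential glucose cultures. Complex III summed to 4008 ± 71.6 CPM in starved xylose, 3257 ± 439.9 CPM in starved glucose, 3699 ± 147 CPM in exponential xylose and 4281 ± 77.6 CPM in exponential glucose cultures. Complex IV summed to 3659.6 ± 120.4 CPM in starved xylose, 3256 ± 186 CPM in starved glucose, 3811 ± 85.6 CPM in exponential xylose and 4139 ± 135 CPM in exponential glucose cultures. On glucose, the summed pathway thus combined less complex III and complex IV with more of the cytochrome c list in starved than exponential cultures. Set against this sum, the alternative oxidase was lower by 1.48 on the log2 scale in starved xylose cultures (a log2 difference of -1.48). The same log2 difference was -2.10 in starved glucose cultures, -6.45 in exponential xylose cultures and -3.54 in exponential glucose cultures. Since the loci differ in length, only the change of this difference between groups can be read, not its size.

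**Figure D3:**
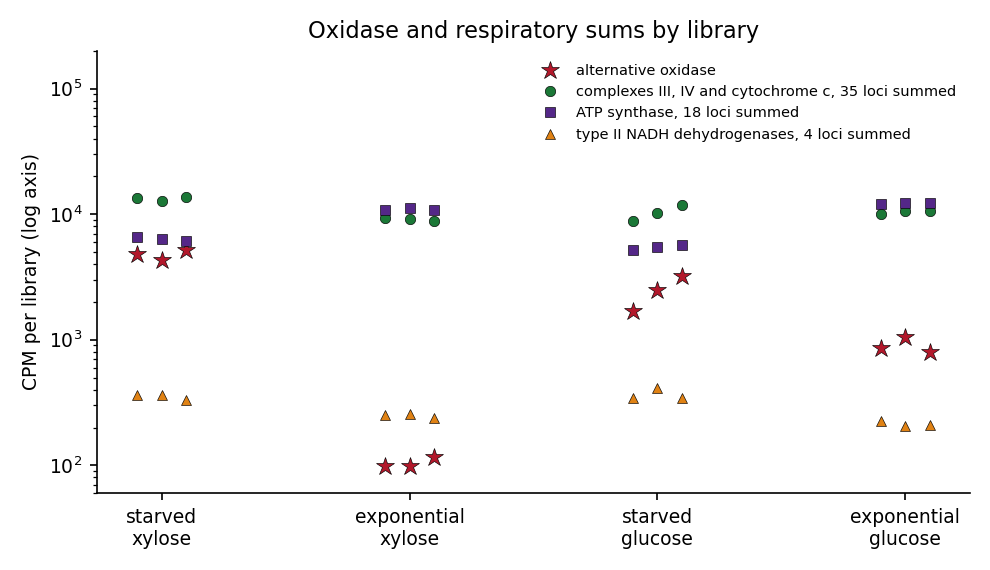
CPM per library (log axis) of the alternative oxidase and of 3 summed lists, by group, with 1 marker per library. The alternative oxidase spans 98.3 to 5155 CPM, while the summed cytochrome pathway stays between 8854 and 13727 CPM.

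Within complex III, which passes electrons from ubiquinol to cytochrome c, the 2 sugars differed. With starvation on xylose 6 of 11 loci were higher and 4 lower, and with starvation on glucose 1 was higher and 8 lower. In starvation 6 of 11 were higher on xylose than on glucose and 1 lower. Scaled by library totals alone, the split was 2 higher and 5 lower for starvation on xylose, and 3 higher and 1 lower for xylose over glucose in starvation. The Rieske iron-sulfur protein rip1 had 766, 705 and 710 CPM in starved xylose cultures, 423, 535 and 643 CPM in starved glucose cultures, 555, 602 and 555 CPM in exponential xylose cultures and 667, 669 and 656 CPM in exponential glucose cultures. Starved xylose libraries were the highest and starved glucose libraries varied most. The change of rip1 with starvation was 0.66 ± 0.16 (SE) larger on xylose than on glucose on the log2 scale, with an edgeR adjusted p of 0.0049.

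Of the 3 loci of the cytochrome c list, 2 were higher with starvation on both sugars. The other, the holocytochrome c1 synthase gene cyt2, was not called on either. The cytochrome c isoform gene cyc7 had 4966, 4380 and 5171 CPM in starved xylose cultures and 1618, 1413 and 1494 CPM in exponential xylose cultures. On glucose cyc7 had 2620, 3292 and 4153 CPM in starved cultures and 1687, 1942 and 1828 CPM in exponential cultures. The log2 fold change of cyc7 with starvation was 1.68 ± 0.14 (SE) on xylose and 0.88 ± 0.14 (SE) on glucose. The gene cyc3 encodes holocytochrome c synthase, which attaches heme to cytochrome c, and of all listed genes it fell furthest in exponential xylose against exponential glucose cultures. It had 666, 675 and 888 CPM in starved xylose cultures, 297, 377 and 545 CPM in starved glucose cultures, 43.6, 43.4 and 40.5 CPM in exponential xylose cultures and 101, 103 and 84.9 CPM in exponential glucose cultures. The order of these groups was that of the alternative oxidase, with no overlap. The log2 fold change of cyc3 with starvation was 4.13 ± 0.19 (SE) on xylose and 2.08 ± 0.18 (SE) on glucose, and the difference of 2.05 ± 0.24 (SE) had an edgeR adjusted p of 1.1e-05. In exponential growth cyc3 was lower on xylose than on glucose by -1.18 ± 0.17 (SE), and in starvation it was higher on xylose by 0.87 ± 0.17 (SE).

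Complex IV, the terminal oxidase of the cytochrome pathway, was mixed. Of 19 tested loci, 5 were higher and 7 lower with starvation on xylose (4 and 9 scaled by library totals alone), and 2 were higher and 11 lower on glucose. In exponential growth 2 were lower on xylose than on glucose and the others were not called, and in starvation 3 were higher and 4 lower. The structural subunit cox13, the most abundant locus of the list by CPM, had a log2 fold change of 0.12 ± 0.09 (SE) with starvation on xylose, which was not called, and fell by 0.23 ± 0.09 (SE) on glucose, a call lost in 6 of the alternative fits. The assembly factors cmc2 and pet117 changed further than cox13. On the log2 scale cmc2 rose by 1.12 ± 0.11 (SE) on xylose and 1.46 ± 0.11 (SE) on glucose. In contrast, pet117 fell by 2.08 ± 0.24 (SE) on xylose and by 0.94 ± 0.23 (SE) on glucose. Structural subunits were not all as steady as cox13. The subunit cox5a had 136, 166 and 201 CPM in starved and 403, 406 and 421 CPM in exponential glucose cultures. On xylose cox5a had 296, 235 and 264 CPM in starved and 378, 410 and 380 CPM in exponential cultures.

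ATP synthase, which uses the proton gradient that the alternative oxidase does not feed, was lower with starvation on both sugars. Of 17 tested loci, 15 were lower and 1 higher on xylose, with a median log2 fold change of -0.85. On glucose 16 were lower and 1 higher, with a median of -1.15. The catalytic beta subunit atp2 had 1443, 1361 and 1295 CPM in starved xylose cultures and 2431, 2589 and 2500 CPM in exponential xylose cultures. It had 1001, 1125 and 1132 CPM in starved glucose cultures and 2837, 2820 and 2800 CPM in exponential glucose cultures. The groups did not overlap on either sugar. The log2 fold change of atp2 with starvation was -0.88 ± 0.08 (SE) on xylose and -1.38 ± 0.08 (SE) on glucose, with edgeR adjusted p values of 6.2e-08 and 2.3e-10.

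The 9 genes of ubiquinone synthesis split, with 3 higher and 3 lower with starvation on xylose (3 and 5 scaled by library totals alone) and 2 higher and 5 lower on glucose. The hexaprenyl pyrophosphate synthase coq1, which makes the side chain of ubiquinone, had 168.7, 154.5 and 173.0 CPM in starved xylose cultures and 79.2, 83.1 and 76.9 CPM in exponential xylose cultures. It had 93.1, 110.4 and 109.2 CPM in starved glucose cultures and 135.1, 128.3 and 121.4 CPM in exponential glucose cultures. Thus coq1 rose with starvation on xylose, by 1.05 ± 0.09 (SE) on the log2 scale, and fell on glucose, by 0.30 ± 0.09 (SE). Like the alternative oxidase it was lower on xylose in exponential growth, by -0.69 ± 0.09 (SE), and higher on xylose in starvation, by 0.67 ± 0.09 (SE). Most of the list did not share this: between the sugars 0 of 9 were higher and 1 lower in exponential growth. In starvation 1 was higher, 1 lower and 7 not called. The list's log2 fold changes with starvation ran from -0.65 to 3.23 on xylose and from -0.95 to 2.82 on glucose.

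Carriers that exchange ADP, ATP, phosphate and organic acids over the inner membrane held both listed loci whose log2 fold change with starvation on xylose was larger than that of the alternative oxidase. Of 8 loci, 4 were higher and 3 lower with starvation on xylose, and 3 were higher and 5 lower on glucose. The second ADP/ATP carrier locus, pet9_2, had 539, 422 and 539 CPM in starved xylose cultures and 0.374, 0.643 and 0.721 CPM in exponential xylose cultures. On glucose it had 406, 615 and 692 CPM in starved cultures and 0.499, 0.705 and 0.390 CPM in exponential cultures. Its log2 fold change with starvation was 9.75 ± 0.27 (SE) on xylose and 9.999 ± 0.27 (SE) on glucose. The second dicarboxylate carrier locus, dic1_2, rose by 6.91 ± 0.14 (SE) on xylose and 6.48 ± 0.14 (SE) on glucose. The difference of the starvation changes, xylose minus glucose, was -0.25 ± 0.47 (SE) for pet9_2 and 0.43 ± 0.19 (SE) for dic1_2, neither of them called, where that of the alternative oxidase was 4.06.

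In the TCA cycle and pyruvate dehydrogenase, 6 of 22 loci were higher and 11 lower with starvation on xylose (4 and 15 scaled by library totals alone), and 5 were higher and 12 lower on glucose. Between the sugars 1 was higher and 5 lower on xylose in exponential growth, and 9 were higher and 3 lower in starvation. Summed, the list fell with starvation, from 15149 to 12503 CPM on xylose and from 16548 to 11727 CPM on glucose, unlike fum1. Fumarase, fum1, had the group order of the alternative oxidase, at 1547, 1167 and 1407 CPM in starved xylose cultures, 696, 921 and 1135 CPM in starved glucose cultures, 302, 328 and 342 CPM in exponential xylose cultures and 534, 556 and 504 CPM in exponential glucose cultures. No neighbouring groups overlapped in this order. The log2 fold change of fum1 with starvation was 2.08 ± 0.15 (SE) on xylose and 0.79 ± 0.14 (SE) on glucose, and the difference of 1.30 ± 0.20 (SE) had an edgeR adjusted p of 0.00016.

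Alternative oxidase is known in fungi and plants to limit the leak of electrons to reactive oxygen, so enzymes of reactive oxygen defence were set beside it. Of 25 tested loci, 12 were higher and 7 lower with starvation on xylose, and 16 were higher and 6 lower on glucose. A second locus for cytochrome c peroxidase, ccp1_2, rose by 4.18 ± 0.12 (SE) on xylose and 3.77 ± 0.12 (SE) on glucose on the log2 scale. The mitochondrial peroxiredoxin prx1 fell the furthest, to 94.9, 96.3 and 86.1 CPM in starved xylose cultures, against 1948, 2063 and 2288 CPM in exponential xylose cultures. On glucose it fell to 101, 106 and 75.0 CPM in starved cultures, against 1427, 1584 and 1680 CPM in exponential cultures. Between the sugars in exponential growth 4 loci were higher and 1 lower on xylose, and in starvation 3 were higher and 6 lower (1 and 9 scaled by library totals alone, 2 and 8 by DESeq2 size factors).

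Loci with the pattern most like that of the alternative oxidase were ranked by Pearson's r of log2(CPM + 1) over the 12 libraries, among 5296 loci that reached a mean of 10 CPM in some group. The 12 points fall into 4 groups of replicates and share those libraries, so r mainly measures how alike the group means are. The 10 leading loci had r between 0.981 and 0.993, the eleventh had 0.979, and 65 loci had r of at least 0.95. They were ncb2 (a subunit of a transcription repressor complex), pck1, ypr011c, taz1, uga1, mrx10, fcp1, PHBOTO_003392 (a PAS domain protein), tpo3_6 and cia1. These loci were selected on these levels, so their differences are given with no test.

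Of the 10, pck1 and ypr011c came nearest to the alternative oxidase in size as well as shape. The gene pck1 encodes phosphoenolpyruvate carboxykinase, the first committed enzyme of gluconeogenesis. It had 2923, 2264 and 2712 CPM in starved xylose cultures, 833, 1364 and 1650 CPM in starved glucose cultures, 116, 119 and 154 CPM in exponential xylose cultures and 498, 596 and 463 CPM in exponential glucose cultures. Replicate A was the lowest starved glucose library in pck1, as it was in the alternative oxidase. Its log2 fold change was 4.35 for starvation on xylose, 1.30 for starvation on glucose, -2.00 for xylose over glucose in exponential growth and 1.04 for xylose over glucose in starvation.

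The locus ypr011c is annotated as a mitochondrial carrier. It had 1285, 1127 and 1529 CPM in starved xylose cultures, 581, 736 and 1013 CPM in starved glucose cultures, 55.5, 53.4 and 65.0 CPM in exponential xylose cultures and 229, 254 and 210 CPM in exponential glucose cultures. The groups stood in the same order without overlap. Its log2 fold changes in the 4 comparisons were 4.50, 1.75, -1.99 and 0.76. The other 8 leading loci had smaller differences, and in uga1, mrx10 and fcp1 the starved xylose libraries overlapped the starved glucose libraries, which they did not in the alternative oxidase. The locus ncb2, first by r at 0.993, had a log2 fold change of 1.78 for starvation on xylose and -0.98 for xylose over glucose in exponential growth. The polyamine transporter locus tpo3_6 and PHBOTO_003392 lay between, both at 3.54 for starvation on xylose.

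**Figure D4:**
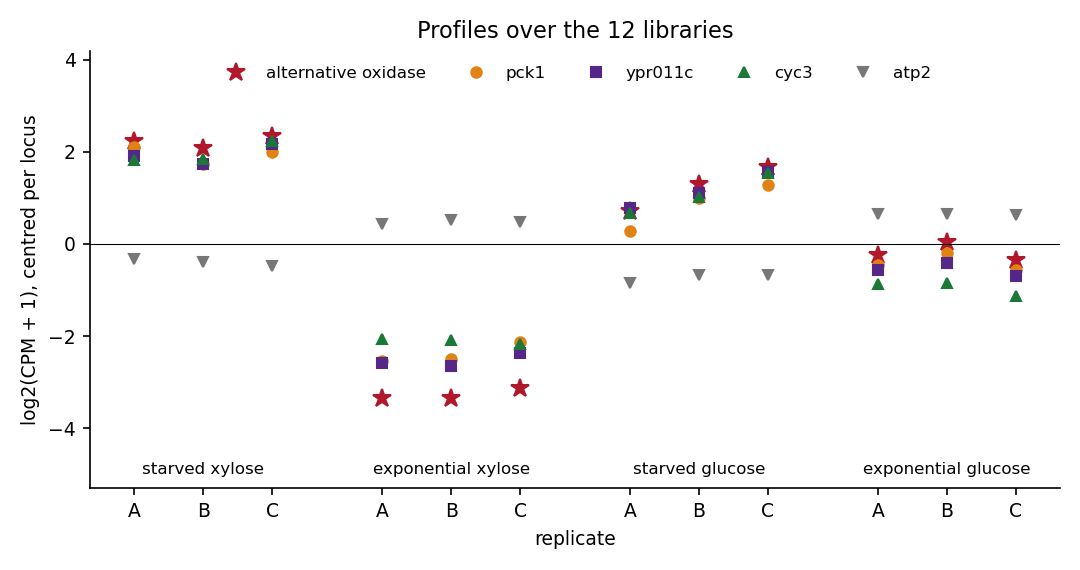
Log2(CPM + 1) of the alternative oxidase, pck1, ypr011c, cyc3 and atp2 in each of the 12 libraries, centred on each locus's mean over libraries. The first 4 loci are high in starved xylose and low in exponential xylose cultures, with the alternative oxidase lowest there, and atp2 is lower in starved than exponential cultures on both sugars.

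**Figure D5:**
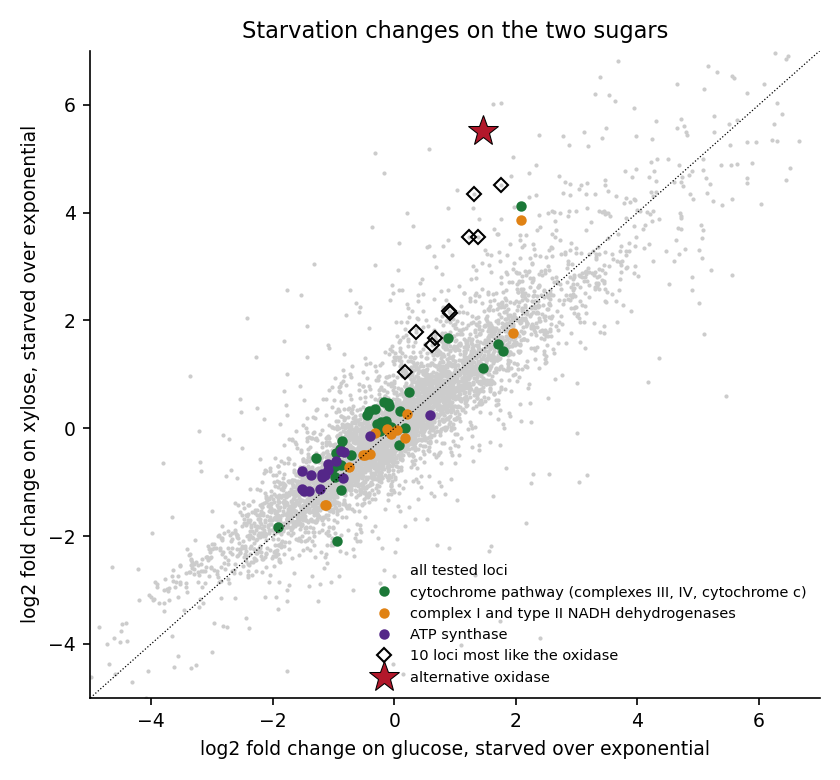
Log2 fold change with starvation on xylose (vertical axis) against that on glucose (horizontal axis) for the tested loci, with groups of respiratory genes coloured, the 10 loci most like the alternative oxidase as open diamonds and the oxidase as a star; 97 loci lie beyond the axes and are not drawn. The oxidase, at 5.51 on xylose and 1.45 on glucose, lies well above the dotted line of equal change, as do the diamonds.

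Loci with neighbouring numbers did not share the pattern. Of the 5 loci on each side of PHBOTO_002482 by locus number, 8 were tested, and their r with the alternative oxidase ran from -0.82 for ynk1 (a nucleoside diphosphate kinase) to 0.63 for pdb1_2 (a pyruvate dehydrogenase subunit). The next number up, the ribosomal protein gene rpl34a, had r of -0.77. The 2 numbers just below, both annotated as DNA-binding, had too few reads to be tested. Unlike the alternative oxidase, pdb1_2 was higher in exponential xylose than exponential glucose cultures, at 69.6 ± 2.9 CPM on xylose and 43.0 ± 3.4 CPM on glucose (SD, n = 3 each). Locus numbers were taken as an order only, since no coordinates were used here.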

How the data were processed

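Poly-A RNA of 12 samples was sequenced as stranded libraries, per the labels' protocols. Per the submitters' processing notes, the tools were bcl2fastq 2.20.0.422, CASAVA, Trim Galore 0.6.1, cutadapt 2.3, HISAT2 2.2.1 and DESeq2. The sources used here do not name the counter, strand setting, genome build or handling of reads that match several loci. Per the file headers, the deposited table holds raw read counts per locus. The deposited signal columns are the authors' normalized counts, each equal to the count over 1 size factor per library. The log2 columns are the authors' log2 fold changes, per the file headers.

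An edgeR 4.0.16 model (under R 4.3.3) of the TMM-scaled raw counts took in all 12 libraries, with a term for each group and 8 residual degrees of freedom. The filterByExpr step (minimum count 10, CPM of at least 0.3946 in 3 libraries) kept 5805 loci; 615 loci had no read, and 269 had reads but were not tested. Quasi-likelihood tests were adjusted by Benjamini-Hochberg, with calls at an adjusted p under 0.05. The SE is approximate, from the log2 fold change and F. CPM is the count over the TMM-scaled total. Scripts were tested on simulated data.

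The gene and the lists were chosen with earlier results of these data known. Lists came from product names, with 19 changes by hand. Named were the oxidase, the 10 loci most like it, 5 neighbours on each side, all loci of lists of up to 12 tested loci, and in longer lists the 3 called loci with the largest starvation change and the most abundant locus. The complex IV subunit cox5a was named outside this rule, as a structural subunit beside cox13. Alternatives were DESeq2 1.42.0 and its size factors, library totals, no filter, 2-group fits, a replicate block and leaving out each library. No per-sample column was left out (0 unused).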

Additional observations from a re-analysis of the deposited data

Results flagged for a closer look

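The alternative oxidase itself was marked because its sugar difference had opposite directions in the 2 phases: the log2 fold change of xylose over glucose was 0.95 in starvation and -3.11 in exponential growth, with every library on the side of its group. Since the gene was chosen with these levels known, the difference was not tested.

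Among the listed genes, the change with starvation differed between xylose and glucose (edgeR adjusted p under 0.05 for the interaction) by at least 1 on the log2 scale at 8 loci named by the rule. The difference, xylose minus glucose, was 2.49 for lat1_2, a second locus for an acetyltransferase subunit of pyruvate dehydrogenase, and 1.23 for pda1_2, a second locus for its alpha subunit. It was 2.05 for cyc3, 1.77 for nde1_2, 1.35 for coq1, 1.30 for fum1 and 1.06 for the succinate dehydrogenase assembly factor sdh7. The complex IV assembly factor pet117 had -1.15. Levels of lat1_2, pda1_2, nde1_2 and pet117 were low, and the first 3 are copies that may share reads with another locus. With 3 libraries a group, no single library was tested as standing apart.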

How the results depend on the processing

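The direction of the alternative oxidase was kept in all 5 comparisons under every alternative run. Of its 89 alternative fold changes, 88 moved by less than the spread between replicates. The exception was starvation on xylose scaled by library totals, with a log2 fold change of 5.29; there the median over all tested loci was -0.21, and it was -0.12 for starvation on glucose and for xylose over glucose in starvation. Leaving out each library in turn gave 5.45 to 5.59 for starvation on xylose, 1.21 to 1.67 for starvation on glucose, -3.19 to -2.99 for exponential xylose over glucose, 0.73 to 1.19 for starved xylose over glucose and 3.84 to 4.30 for the difference of the starvation changes.

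The number of loci called for exponential xylose over glucose was 1203, against 2458 with only the 2 groups compared and 791 to 1528 without 1 library (791 without exponential glucose replicate B). For starved xylose over glucose it was 2446, against 1613 with only the 2 groups. The causes were not tested. List counts moved by over 1.5 times in 163 of 2016 cases, 136 of them from a count of 3 or fewer, and no named gene reversed a called direction.

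The loci most like the oxidase depend on the measure: Spearman's rho kept 1 of the 10, ypr011c, with pck1 tied at the same rho of 0.993, and root mean square distance kept 2. The rank per kilobase was not run, since no lengths were at hand.

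Whether the letters A, B and C pair samples across groups could not be decided, since paired samples may also have weakly correlated deviations. Of 18 same-letter pairs, 3 had a correlation of deviations over 0.1, and the values ran from -0.17 to 0.24. In 8 of 36 combinations of a sample with another group, the sample correlated best with its own letter. With the replicate block the oxidase's log2 fold changes were 5.52, 1.42, -3.12, 0.98 and 4.09 in the order above, and calls numbered 4696, 4691, 1189, 2364 and 2162.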

Other observations

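The locus rcf2, annotated as respiratory supercomplex factor 2, a protein known in Saccharomyces cerevisiae to associate with complex IV, ranked the 12 libraries exactly as the alternative oxidase did (Spearman's rho of 1, Pearson's r of 0.979 over 12 libraries). It was chosen after its values were seen, so no test is given. It had 441, 434 and 543 CPM in starved xylose cultures, 233, 326 and 427 CPM in starved glucose cultures, 45.9, 47.7 and 49.6 CPM in exponential xylose cultures and 113, 129 and 109 CPM in exponential glucose cultures. Its log2 fold change stood at 3.31 for starvation on xylose and 1.49 for starvation on glucose.

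By root mean square distance, which also counts size, PHBOTO_003533, a hypothetical protein, came nearest to the alternative oxidase. It had 923, 1067 and 1222 CPM in starved xylose cultures and 26.7, 24.5 and 23.1 CPM in exponential xylose cultures. On glucose it had 401, 571 and 738 CPM in starved cultures and 120.5, 109 and 99.6 CPM in exponential cultures. The holocytochrome c synthase cyc3 was ninth by this measure, and it was the only locus of the respiratory lists among the nearest 10.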
